A study of Mus musculus with 11 samples.

Results

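The genes described here encode the chains of collagens and laminins. They were chosen by symbol from the platform annotation supplied with the array values, as Col, a number, a and a number, or as Lam, a, b or c and a number, on array features (transcript clusters) with 1 gene symbol. This gave 54 genes of the 19935 tested, 44 for collagen and 10 for laminin chains. RNA of mouse embryonic stem cells (ESCs) was hybridised to 11 Affymetrix arrays of 1 colour. The control groups hold E14, a wild-type ESC line, in ESC medium (n = 3) or after 3 days in N2B27 (n = 3), a defined medium without serum that lets ESCs exit pluripotency. The mutant groups hold cells labelled Bmpr1a-/-, without this receptor of the BMP pathway, in ESC medium (n = 2, numbered 2 and 3) or after 3 days in N2B27 (n = 3). Mutant lines C1-6, Fr124 and Fr88, 3 in all, are listed in the labels, but the line on each array is not, and no treatment other than the medium is given. Values are log2 values centred on a baseline of each gene, so they can be compared between arrays but not between genes. Precision is limited by how few arrays there are. Each mutant array differs from each control array in cell line as well as in Bmpr1a, and line and genotype cannot be told apart in any difference between genotypes given here. Nor can fewer cells of a type be told apart from less RNA per cell. The labels do not call the arrays of a group separate cultures, so the errors and p-values measure a spread that may be technical.

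Collagens are trimers of alpha chains wound into a triple helix, and laminins are heterotrimers of 1 alpha, 1 beta and 1 gamma chain. Fibrillar collagens, such as types I, II, III, V and XI, form the fibres of connective tissue and cartilage. Type IV collagen forms the network of basement membranes, the thin sheets under epithelia, in which laminin polymers are the other main scaffold. In the early embryo, laminin and type IV collagen are laid down by the endoderm and the epiblast. The 54 genes were grouped into 11 for fibrillar collagens, 16 for basement membrane chains (6 for type IV collagen and 10 for laminin) and 27 for other collagens.

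Several of these genes are set out in the genome in ways that bear on how they can be read. Col4a1 and Col4a2, the most widespread type IV chains, lie head to head on chromosome 8, with RefSeq starts 21 bases apart on opposite strands (GRCm38.p6). With Lamb1, Lama5 and Col1a2 they passed the test as lower in the mutant arrays of ESC medium. Sequence at or before the starts of these genes is shown as an example of both classes, and that of Col5a1 and Col18a1, which passed too, is not printed. The Col4a1 and Col4a2 sequence is the 78 bases shared by their 2 windows when each also takes the 50 bases after the start (chr8:11312777-11312854, plus strand). All of it lies after the start of 1 or both of these genes. For Lamb1 (chr12:31265043-31265292, plus strand), Lama5 (chr2:180225860-180226109, minus strand) and Col1a2 (chr6:4505368-4505617, plus strand) it is the 250 bases before the start. Capitals mark the GC box letters GGGCGG, or CCGCCC on the other strand, and the CCAAT box letters CCAAT, or ATTGG on the other strand, which do not overlap here.
Col4a1 and Col4a2: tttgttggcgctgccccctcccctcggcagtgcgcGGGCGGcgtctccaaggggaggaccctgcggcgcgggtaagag
Lamb1: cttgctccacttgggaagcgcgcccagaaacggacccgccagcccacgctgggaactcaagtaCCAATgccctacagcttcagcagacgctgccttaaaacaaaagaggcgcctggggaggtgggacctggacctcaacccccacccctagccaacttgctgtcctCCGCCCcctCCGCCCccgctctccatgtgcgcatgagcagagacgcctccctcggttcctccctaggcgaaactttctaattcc
Lama5: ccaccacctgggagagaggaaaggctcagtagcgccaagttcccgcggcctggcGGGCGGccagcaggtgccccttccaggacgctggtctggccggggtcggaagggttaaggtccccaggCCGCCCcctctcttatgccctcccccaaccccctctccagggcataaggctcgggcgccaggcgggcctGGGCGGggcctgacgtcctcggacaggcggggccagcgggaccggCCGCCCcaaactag
Col1a2: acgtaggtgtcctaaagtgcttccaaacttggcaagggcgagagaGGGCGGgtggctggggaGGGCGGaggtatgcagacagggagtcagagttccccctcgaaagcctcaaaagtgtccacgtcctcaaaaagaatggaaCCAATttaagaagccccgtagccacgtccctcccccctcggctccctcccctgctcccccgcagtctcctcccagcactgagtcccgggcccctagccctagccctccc
The 78 bases shown for Col4a1 and Col4a2 hold 1 GC box and are not a like window to the others. In the 250 bases before the start, Col4a1 has 0 GC boxes and a CCAAT box, and Col4a2 has 2 and a CCAAT box. Lamb1 has 2 and a CCAAT box, Lama5 has 4 and no CCAAT box, and Col1a2 has 2 and a CCAAT box. RefSeq windows were found for 40 of the 54 genes (44 windows), Col1a1 and Col12a1 not among them. Of these windows of 250 bases, 24 held a GC box, against 32.7% of all 32851 windows in the table, and 14 held a CCAAT box, against 33.8%. The letters TATAAA, or TTTATA on the other strand, were in 0 of the 11 basement membrane windows and 2 of the 8 fibrillar windows, against 12.4% of all. The palindrome GGCGCC was in 6 of the 44 windows, against 9.59% of all. These were the windows of Col4a1, Lamb1, Lama5 and Col5a1, and of Col4a4 and Col16a1, which were called in no comparison. The windows of Col4a2, Col1a2 and Col18a1, also lower in the mutant arrays of ESC medium, did not hold it. These matches describe letters and show no binding.

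Bmpr1a read 0.16 to 0.37 in the control arrays and -0.03 and 0.00 in the mutant arrays in ESC medium, and 0.61 to 0.76 against -0.14 to 0.15 in N2B27. All 8 pluripotency markers fell in N2B27 in both genotypes (median difference -2.09 in control and -1.64 in mutant). The centred values cannot show whether a defining ESC marker is present or absent. Of 10 markers of primitive and parietal endoderm, cells rich in type IV collagen and laminin, only Dab2 was called in any comparison. Their mean lay between -0.10 and 0.14 on every array. Of 12 fibroblast and feeder cell markers, 2 fell in mutant cells in ESC medium and none rose. Their mean there was -0.11 to -0.08 in control and -0.47 to -0.39 in mutant arrays, but the median difference was 0.00, with 6 markers above 0 and 6 below. These 2 were Acta2 and Tagln, contractile fibre genes named after their values were seen, with -1.88 for Acta2 (SE 0.41, adjusted p = 0.0235) and -2.23 for Tagln (SE 0.36, adjusted p = 0.0059). Acta2 did not pass on leaving out control replicate 1 (adjusted p = 0.0508), 2 (0.0675) or 3 (0.0623) or mutant replicate 2 (0.161) or 3 (0.135), nor Tagln without mutant replicate 2 (0.077). Of 8 trophoblast markers, the keratin genes Krt8 (-1.85, SE 0.11, adjusted p = 2.52e-05) and Krt18 (-2.12, SE 0.25, adjusted p = 0.00126) fell in mutant cells in ESC medium and none rose, and of 9 neural progenitor markers none was called in that comparison. Of the 8 pluripotency markers Zfp42 alone was called there, higher in mutant cells. The part of these markers in the collagen values was not tested.

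Calls rest on limma's p, adjusted by Benjamini-Hochberg over all 19935 genes, being under 0.05. Of the 54 genes, 17 were called in at least 1 of 5 comparisons, which were 6 of 11 fibrillar, 7 of 16 basement membrane and 4 of 27 other collagen genes. That share was not computed over all genes, of which 26.1% were called for N2B27 in control cells alone. The other 37 of the 54 were called in none. The median spread between their highest and lowest array was 0.43 on the log2 scale, against 0.77 for the 17. This contrast follows in part from the calling, which favours genes that differ between arrays.

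**Figure D1:**
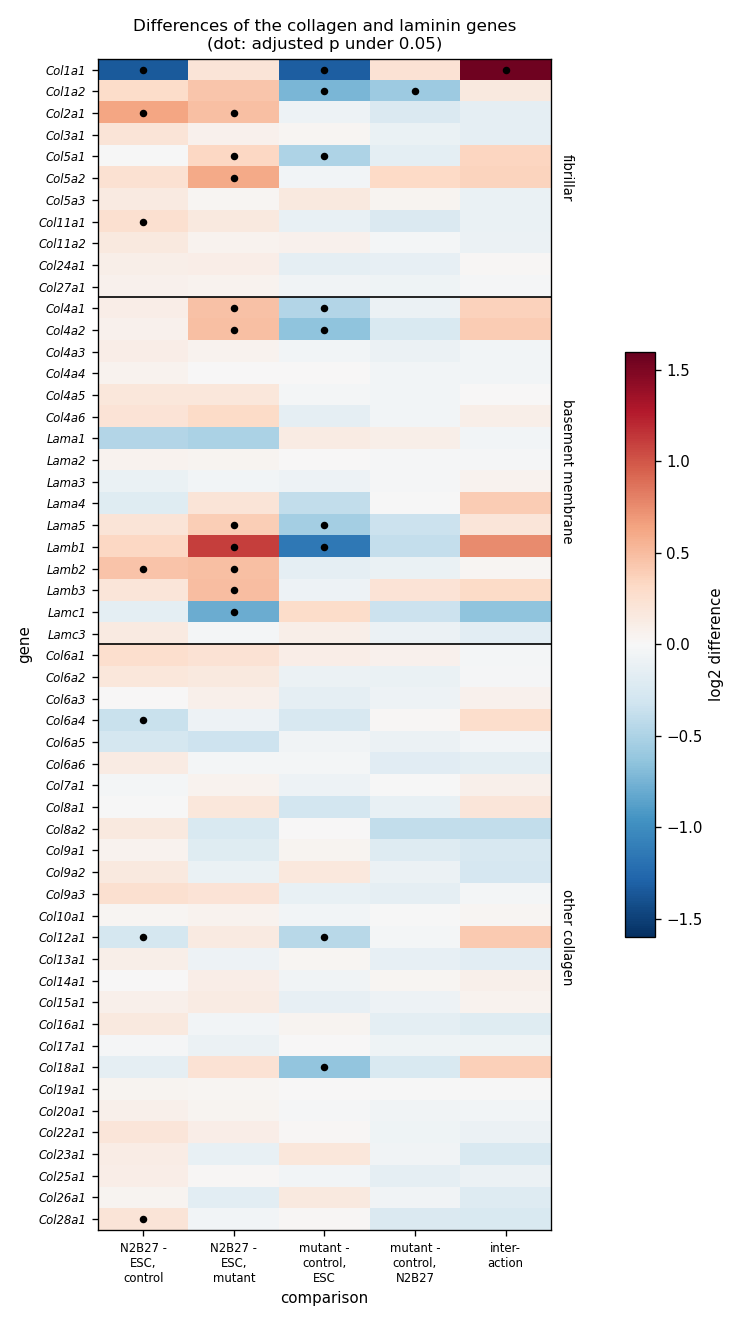
Log2 differences of the 54 collagen and laminin genes (rows, by class) in 5 comparisons (columns), coloured from blue (lower) to red (higher), with a dot where the adjusted p was under 0.05. The dots in the column of mutant against control in ESC medium are all on lower values, while 9 of the 10 dots for N2B27 in mutant cells are on higher ones.

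How mutant cells differ from control in ESC medium was addressed first. Of the 54 genes, 9 fell and none rose (16.7% called, against 6.14% of all genes tested, of which 3.05% were called lower and 3.09% higher). They were 4 of the 16 basement membrane genes (Lamb1, Col4a2, Lama5 and Col4a1), 3 of the 11 fibrillar genes (Col1a1, Col1a2 and Col5a1) and 2 of the 27 others (Col18a1 and Col12a1). The median difference was -0.08 for the basement membrane and -0.08 for the fibrillar genes, against -0.01 for all genes. Most members of each class were not called. Groups of arrays did not overlap for 21 of the 54 genes, 38.9% against 39.4% of all genes, with 17 lower and 4 higher in mutant cells. The split by direction was not computed over all genes.

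Among basement membrane chains, Lamb1 encodes the beta1 chain of the laminins of the early embryo. In ESC medium Lamb1 read 0.25, -0.30 and -0.15 in the control arrays and -1.31 and -1.13 in the mutant ones. Both mutant arrays lay far below all control arrays, and the log2 difference was -1.15 (SE 0.18, adjusted p = 0.00451), or 2.22-fold. Col4a2 read 0.18, -0.12 and -0.15 in the control arrays against -0.60 and -0.77 in the mutant arrays, a difference of -0.65 (SE 0.10, adjusted p = 0.00472). Its partner Col4a1 read 0.18, -0.15 and -0.08 against -0.47 and -0.49, a difference of -0.47 (SE 0.11, adjusted p = 0.0353). Neither gene's groups overlapped. Both lie on chromosome 8, whose 955 genes had a median difference of 0.12, with 150 called higher and 10 lower, so they moved against the other genes of their chromosome. With the median of each chromosome subtracted from each array, both remained called, at -0.74 for Col4a2 and -0.55 for Col4a1. Lama5, the alpha chain of laminin-511, on which pluripotent cells can be grown, read 0.34, 0.07 and 0.06 in the control arrays against -0.38 and -0.39 in the mutant arrays, a difference of -0.54 (SE 0.11, adjusted p = 0.0174).

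The other laminin genes did not pass in ESC medium. Lamc1, the gamma chain shared by most laminins, read 0.57, -0.21 and -0.06 in the control arrays against 0.44 and 0.34 in the mutant arrays, so the groups overlapped (difference 0.29, 95% confidence interval -0.18 to 0.77). Lama1, the alpha chain of laminin-111, read 0.71, -0.48 and -0.37 in the control arrays against 0.11 and 0.05 in the mutant arrays (0.13, interval -0.69 to 0.95). For both genes control replicate 1 stood far above its group. Without that array the differences were 0.53 (adjusted p = 0.0845) for Lamc1 and 0.51 (adjusted p = 0.432) for Lama1. Nid1, which links laminin to type IV collagen, had the same order in the control arrays (1.55, 0.23 and 0.36). Control replicate 1 was the highest of its group for 28 of the 54 genes, against 40.1% of all genes. The mean of the endoderm markers was -0.10 in that array and 0.05 and -0.04 in the others, and the part of endoderm cells was not tested. Lama4, of vascular laminins, differed by -0.40 (SE 0.11, adjusted p = 0.0583) without overlap, and passed without control replicate 1 (-0.46, adjusted p = 0.0443). Lama2, Lama3, Lamb2, Lamb3 and Lamc3 differed by -0.14 to 0.09.

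**Figure D2:**
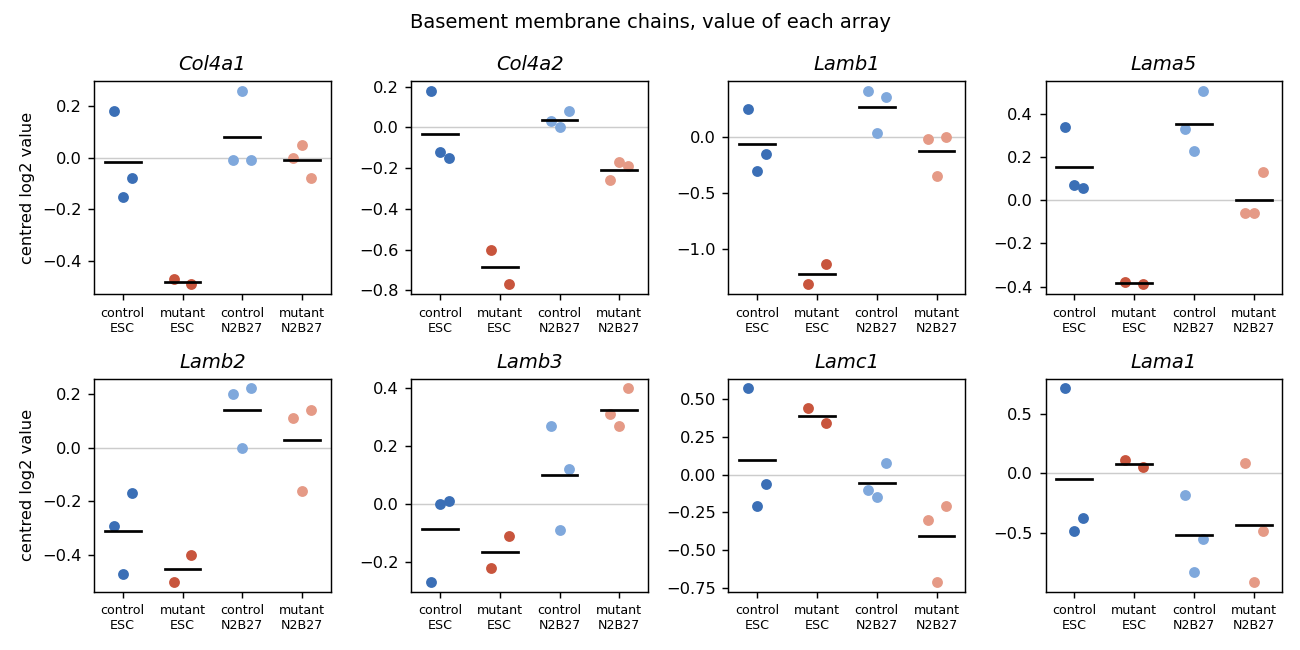
Centred log2 value of each array (points) and group mean (lines) for 8 basement membrane genes, in control and mutant cells in ESC medium and N2B27. The mutant arrays in ESC medium are the lowest for Col4a1, Col4a2, Lamb1 and Lama5, and not for Lamc1 or Lama1.

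Among fibrillar chains, Col1a1 and Col1a2 encode the alpha1 and alpha2 chains of type I collagen. Col1a1 read 1.74, 0.85 and 1.17 in the control arrays against -0.04 and -0.09 in the mutant arrays in ESC medium. The control arrays were all high, and the difference was -1.32 (SE 0.20, adjusted p = 0.00417), or 2.49-fold. Col1a2 read 0.55, -0.06 and 0.18 against -0.56 and -0.46, a difference of -0.73 (SE 0.16, adjusted p = 0.0226). Col5a1, of type V collagen, which helps to start type I fibrils, read 0.09, 0.23 and 0.16 against -0.24 and -0.44, a difference of -0.50 (SE 0.09, adjusted p = 0.0106). None of these groups overlapped. The remaining fibrillar genes, Col2a1, Col3a1, Col5a2, Col5a3, Col11a1, Col11a2, Col24a1 and Col27a1, differed by -0.15 to 0.15, none called.

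Of the other collagens, Col18a1, a proteoglycan collagen of basement membranes and the source of endostatin, read 0.60, 0.08 and 0.03 in the control arrays against -0.42 and -0.38 in the mutant arrays (-0.63, SE 0.15, adjusted p = 0.0336). Col12a1, which binds the surface of fibrils, read 0.40, 0.14 and 0.17 against -0.17 and -0.27 (-0.45, SE 0.10, adjusted p = 0.0274). In both genes the lowest control array lay above the mutant arrays. With 2 mutant arrays, many of these 9 calls rest on each of them. Mutant replicate 3 was the lower of the 2 for 40 of the 54 genes, against 48.1% of all genes. Without mutant replicate 2, Col1a1, Col4a2 and Col5a1 were called, and Lamb1 (0.0675), Col12a1 (0.125), Lama5 (0.13), Col1a2 (0.191), Col4a1 (0.199) and Col18a1 (0.226) were not. Without mutant replicate 3, Col1a1 and Lamb1 were called, and Col4a2 (0.0559), Col1a2 (0.105), Col5a1 (0.111), Lama5 (0.111), Col18a1 (0.15), Col4a1 (0.183) and Col12a1 (0.188) were not. Without control replicate 3, Col12a1 (-0.49, adjusted p = 0.0599), Col1a2 (-0.75, 0.063) and Col4a1 (-0.50, 0.0726) were not called, though their differences were no smaller. Without control replicate 1, Col12a1 (-0.37, 0.0521) and Col4a1 (-0.37, 0.0594) were not called. With the compared groups alone Col4a1 (0.0636), Col1a2 (0.0705) and Col18a1 (0.103) did not pass. In each of these settings the difference kept its sign.

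**Figure D3:**
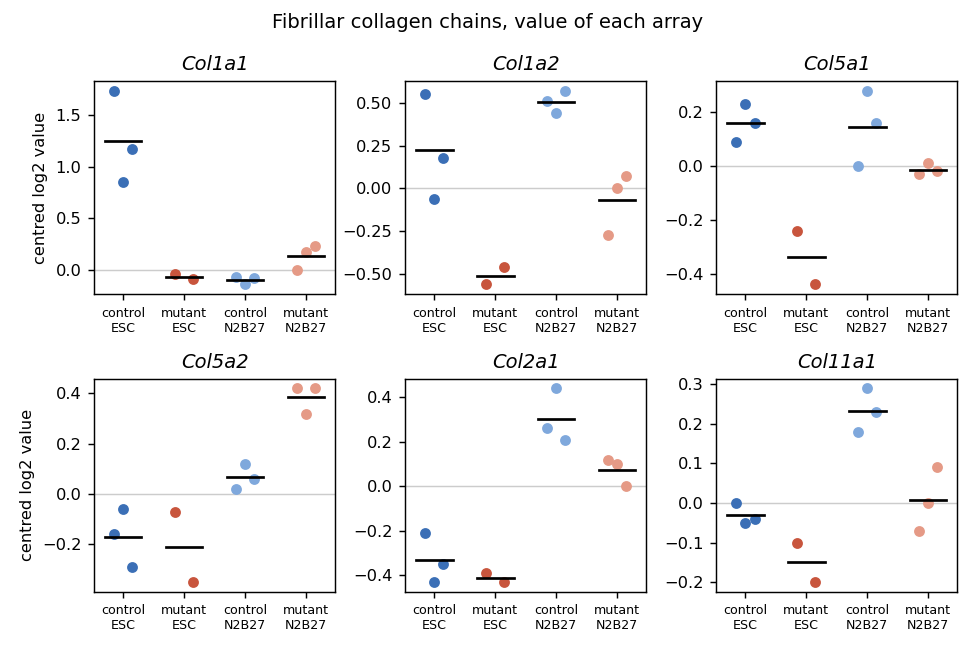
Centred log2 value of each array (points) and group mean (lines) for 6 fibrillar collagen genes in the 4 groups. Col1a1 is high in the 3 control arrays in ESC medium, from 0.85 to 1.74, and between -0.14 and 0.23 in the other 8.

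What mutant cells did on leaving ESC medium was addressed by N2B27 against ESC medium in mutant cells. Of the 54 genes, 9 rose and 1 fell (18.5% called, against 25.2% of all genes, 14.9% higher and 10.3% lower). The risers were 6 of the 16 basement membrane genes (Lamb1, Lamb3, Lamb2, Col4a2, Col4a1 and Lama5) and 3 of the 11 fibrillar genes (Col5a2, Col2a1 and Col5a1), and none of the 27 others was called. Lamc1 fell. The medians were 0.20 for the basement membrane, 0.15 for the fibrillar and 0.03 for the other collagen genes, against 0.01 for all genes. Groups did not overlap for 16 of the 54 genes, 29.6% against 43.5% of all genes. This comparison uses the same mutant ESC medium arrays as the one above, so their values are not independent. Of the 12 fibroblast and feeder cell markers, 5 rose with the medium in mutant cells (Thy1, Twist1, Thbs2, Acta2 and Tagln) and none fell, and their mean was 0.08 to 0.34 in the mutant N2B27 arrays. Of the 8 trophoblast markers Eomes, Krt8 and Krt18 rose and Tfap2c fell, and of the 9 neural progenitor markers Nes and Fabp7 rose. Their part in the collagen and laminin values was not tested.

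Lamb1 read -1.31 and -1.13 in ESC medium and -0.02, -0.35 and 0.00 in N2B27, a rise of 1.10 (SE 0.18, adjusted p = 0.00134). Its partner in the trimer, Lamc1, went the other way, from 0.44 and 0.34 to -0.30, -0.71 and -0.21 (-0.80, SE 0.21, adjusted p = 0.0197). Neither gene's groups overlapped, and their differences lay 1.90 apart. The Col4a1 and Col4a2 pair rose by nearly the same amount, Col4a1 by 0.47 (SE 0.11, adjusted p = 0.0108) and Col4a2 by 0.48 (SE 0.10, adjusted p = 0.00614). Col4a1 read 0.00, 0.05 and -0.08 and Col4a2 -0.26, -0.17 and -0.19 in the mutant N2B27 arrays, all above the mutant arrays in ESC medium. Lama5 rose to -0.06, -0.06 and 0.13 (0.39, SE 0.11, adjusted p = 0.0253). Lamb2, the beta chain of synaptic and kidney laminins, went from -0.50 and -0.40 to 0.11, -0.16 and 0.14 (0.48, SE 0.12, adjusted p = 0.0121). Lamb3, the beta chain of epidermal laminin-332, went from -0.22 and -0.11 to 0.31, 0.27 and 0.40 (0.49, SE 0.12, adjusted p = 0.0114).

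Col5a2, the second chain of type V collagen, read -0.07 and -0.35 in ESC medium and 0.42, 0.32 and 0.42 in N2B27, a rise of 0.60 (SE 0.09, adjusted p = 0.00118). Col5a1 rose by 0.33 (SE 0.09, adjusted p = 0.0243), from -0.24 and -0.44 to -0.03, 0.01 and -0.02. Col2a1, the main collagen of cartilage, also made by the early neural tube and notochord, went from -0.39 and -0.43 to 0.12, 0.10 and 0.00 (0.48, SE 0.09, adjusted p = 0.00272). All 3 were separated between media in every array. The type I genes Col1a1 and Col1a2 did not pass, at 0.20 for Col1a1 (SE 0.20, adjusted p = 0.569) and 0.44 for Col1a2 (SE 0.16, adjusted p = 0.0685). Col1a2 passed without mutant N2B27 replicate 1 (0.54, adjusted p = 0.0369). Without mutant ESC replicate 2, Col4a1 (0.0658), Lamb3 (0.103), Lamb2 (0.105), Lama5 (0.123) and Lamc1 (0.127) were not called, and without mutant ESC replicate 3, Col4a1 (0.0685), Col4a2 (0.0686), Lamc1 (0.0775), Lama5 (0.117) and Col5a1 (0.221) were not. Without mutant N2B27 replicate 3, Col5a1 (0.0549) and Lama5 (0.0826) were not called.

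In control cells, N2B27 against ESC medium gave 4 genes higher and 3 lower of the 54 (7 of 54 called, against 26.1% of all genes, 12.8% higher and 13.3% lower). Of the 11 fibrillar genes Col2a1 and Col11a1 rose and Col1a1 fell, of the 16 basement membrane genes Lamb2 alone rose, and of the 27 others Col28a1 rose and Col6a4 and Col12a1 fell. The medians were 0.16, 0.10 and 0.08 in these classes and 0.02 over all genes. Groups did not overlap for 21 genes, 38.9% against 43.9% of all genes. Beside these, 6 of the 12 fibroblast and feeder cell markers rose (Thy1, Dcn, Pdgfrb, Twist1, Thbs2 and Acta2) and none fell, with a mean of 0.19 to 0.48 in the control N2B27 arrays. The trophoblast markers Tfap2c and Krt8 fell, and the neural progenitor markers Sox1 and Sox3 rose. Col1a1 went from 1.74, 0.85 and 1.17 to -0.07, -0.14 and -0.08, a fall to 2.55-fold lower values (-1.35, SE 0.18, adjusted p = 0.000477). Its 3 N2B27 arrays were close together and all far below the ESC medium arrays. Col1a2 went from 0.55, -0.06 and 0.18 to 0.51, 0.44 and 0.57, with overlap (0.29, SE 0.14, adjusted p = 0.179), and passed without control ESC replicate 1 (0.45, adjusted p = 0.0216). The chains of type I collagen thus did not move together in control cells.

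Col2a1 went from -0.21, -0.43 and -0.35 to 0.26, 0.44 and 0.21 (0.63, SE 0.08, adjusted p = 0.000356). Col11a1, which joins type II collagen in cartilage fibrils, went from 0.00, -0.05 and -0.04 to 0.18, 0.29 and 0.23 (0.26, SE 0.06, adjusted p = 0.0095). Lamb2 went from -0.29, -0.47 and -0.17 to 0.20, 0.00 and 0.22 (0.45, SE 0.10, adjusted p = 0.00963). In all 3 each N2B27 array lay above each ESC medium array, and Col2a1 and Lamb2 were the genes of the family that rose in both genotypes. Lamb1 read 0.41, 0.03 and 0.35 in N2B27 (0.33, SE 0.16, adjusted p = 0.167), and Col4a1 and Col4a2 differed by 0.10 (interval -0.13 to 0.32) and 0.07 (interval -0.13 to 0.27). Col6a4, of the beaded filament collagens, fell by 0.36 (SE 0.08, adjusted p = 0.0082), Col12a1 fell by 0.28 (SE 0.09, adjusted p = 0.0442) and Col28a1 rose by 0.20 (SE 0.07, adjusted p = 0.0448). The sample numbers were taken to pair the arrays here, though the labels name no pairing and the main fit does not use it. With the number as a replicate block Lamb1 (adjusted p = 0.0153), Lama1 (-0.47, adjusted p = 0.0293) and Col6a5 also passed and Col12a1 (0.0596) did not, 9 genes in all. Lamb1 passed too without control ESC replicate 1 (0.49, adjusted p = 0.0391), whereas Lama1 then differed by -0.09 (0.899). Col12a1 did not pass without control ESC replicate 1 (0.158) or 3 (0.0622) or without control N2B27 replicate 1 (0.15), 2 (0.075) or 3 (0.0731). Col28a1 did not pass without control ESC replicate 1 (0.0927), 2 (0.0989) or 3 (0.122) or control N2B27 replicate 1 (0.154) or 2 (0.103).

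Whether the genotypes still differ after 3 days in N2B27 was addressed by mutant against control there. Of the 54 genes 1 fell and none rose (1.9% called, against 5.74% of all genes, 4.10% higher and 1.64% lower). Groups did not overlap for 12 genes, 22.2% against 20.2% of all, 10 of them lower in mutant cells, a split not computed over all genes. The gene that fell was Col1a2, which read 0.51, 0.44 and 0.57 in the control arrays against -0.27, 0.00 and 0.07 in the mutant arrays (-0.58, SE 0.14, adjusted p = 0.0414). No basement membrane gene was called. Of the markers, Pou5f1, Zfp42, Esrrb and Dppa5a (4 of 8 for pluripotency), Twist1 (fibroblast), Nes (neural), and Tfap2c and Krt8 (trophoblast) were higher and Dab2 (endoderm) lower in mutant cells. Lamb1 (0.41, 0.03 and 0.35 against -0.02, -0.35 and 0.00) differed by -0.38 (SE 0.16, adjusted p = 0.21), Lama5 (0.33, 0.23 and 0.51 against -0.06, -0.06 and 0.13) by -0.35 (SE 0.10, adjusted p = 0.0676) and Col4a2 by -0.25 (SE 0.09, adjusted p = 0.158), each without overlap. Col5a2 read 0.02, 0.12 and 0.06 in the control arrays against 0.42, 0.32 and 0.42 in the mutant arrays (0.32, SE 0.08, adjusted p = 0.0541), the opposite side from Col1a2. Col1a1 differed by 0.23 (interval -0.17 to 0.63) and Col4a1 by -0.09 (interval -0.31 to 0.13).

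The numbers paired the arrays in this comparison as well. With them as a replicate block 4 genes were called: Col1a2 (adjusted p = 0.0412), Lamb1 (0.0251) and Col8a2 lower and Col5a2 (0.0421) higher in mutant cells, Col8a2 being named here only for this call. The call of Col1a2 was lost without control N2B27 replicate 1 (0.097), 2 (0.0911) or 3 (0.141), without mutant N2B27 replicate 1 (0.102) or 2 (0.0575), and without the genes of chromosomes 8, X and Y (0.0543). Without mutant N2B27 replicate 3 Col11a1 was also called lower (-0.27, adjusted p = 0.0442), and without mutant N2B27 replicate 2 so was Col28a1 (-0.29, adjusted p = 0.0275).

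**Figure D4:**
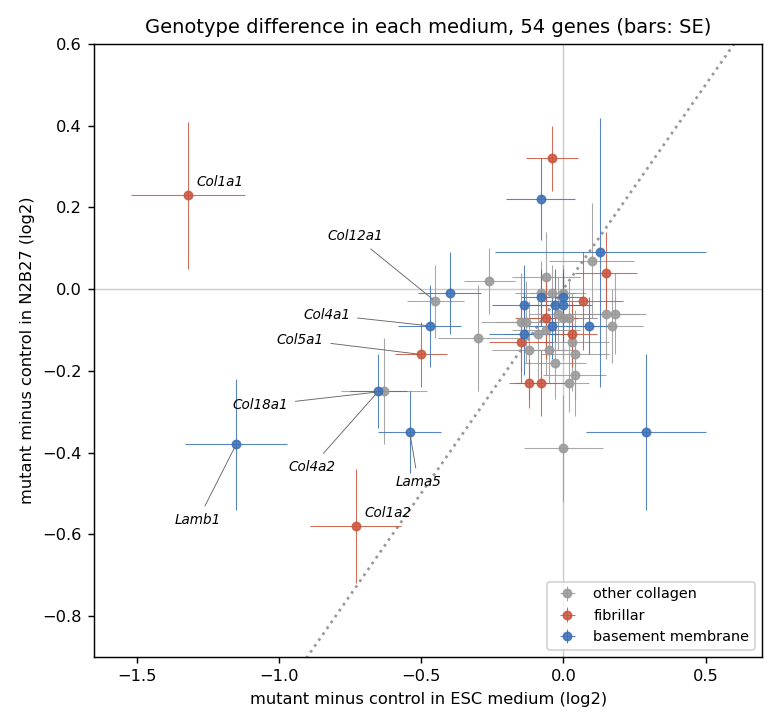
Log2 difference of mutant minus control in ESC medium (x) and in N2B27 (y) for the 54 genes, with standard errors and colours by class. The dotted line marks equal differences, and the genes called in either medium are labelled. Col1a1 is at -1.32 and 0.23, and Lamb1 at -1.15 and -0.38.

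Whether the genotype difference changed between media was tested by the interaction, which subtracts the genotype difference of ESC medium from that of N2B27. It was called for 1 of the 54 genes, Col1a1 (1.9%, against 2.12% of all genes, 1.57% higher and 0.552% lower), at 1.55 (SE 0.27, adjusted p = 0.0194). Col1a1 was high in the control ESC medium arrays alone, and its 3 mutant N2B27 arrays read 0.00, 0.17 and 0.23. The call was lost without mutant ESC replicate 2 (0.1) or 3 (0.0795) or control N2B27 replicate 2 (0.0529) or 3 (0.0531), with differences of 1.30 to 1.75 over all settings tried. Col1a2 had an interaction of 0.15 (interval -0.32 to 0.62). Lamb1 had 0.76 (interval 0.24 to 1.29, adjusted p = 0.158) and Lamc1 -0.64 (interval -1.28 to -0.01, adjusted p = 0.358). For Col4a1 and Col4a2 the values were 0.37 (adjusted p = 0.287) and 0.40 (adjusted p = 0.194). For no basement membrane gene did the genotype difference pass as differing between the media in this fit, but Lamb1 did so with the replicate block (0.67, adjusted p = 0.0283) and with array weights (0.77, adjusted p = 0.0341).

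The remaining type IV chains, some of which replace the Col4a1 and Col4a2 trimer in mature basement membranes such as that of the kidney glomerulus, were not called in any comparison. Col4a3 and Col4a4, neighbours on chromosome 1, differed by -0.09 to 0.10 over the 5 comparisons. Col4a5 and Col4a6, on the X chromosome with starts 1343 bases apart, differed by -0.14 to 0.31. Col4a6 had the highest of these values, 0.31 for N2B27 in mutant cells (SE 0.11, adjusted p = 0.058), and passed there without mutant N2B27 replicate 1 (0.38, adjusted p = 0.0338), with array medians subtracted (0.0443) and with array weights (0.0268). In ESC medium, where the median of the 739 genes of the X was 0.09 in mutant cells, Col4a5 and Col4a6 differed by -0.03 and -0.14.

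Most members that were not called shared an order of the mutant N2B27 arrays. Of the 37, 27 had mutant N2B27 replicate 2 as the highest and replicate 1 as the lowest of their group. Over all genes tested, replicate 2 was the highest of its group in 50.7% and replicate 1 the lowest in 51.1%, and the array medians were 0.05 and -0.03. The share of all genes with both was not computed, so the count of 27 has no like background here. Examples, picked after their values were seen, are Col16a1 (-0.23, 0.25 and 0.00 in replicates 1 to 3), Col13a1 (-0.27, 0.28 and -0.01) and Col27a1 (-0.15, 0.29 and 0.00). Lama2 had the narrowest spread of the 37 (0.20) and Lama1 the widest (1.61).

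Genes that act with these chains were described from lists of enzymes, partners and receptors. Of these 63 genes, 15 fell and 1 rose with the mutant genotype in ESC medium, where 3.05% of all genes were called lower and 3.09% higher. Of 18 collagen biosynthesis genes, Serpinh1, the collagen chaperone HSP47, and Creb3l1, a membrane-bound factor that activates collagen genes, were lower, with -0.84 for Serpinh1 (SE 0.10, adjusted p = 0.00168) and -0.63 for Creb3l1 (SE 0.09, adjusted p = 0.00232). Of 10 processing genes, Bmp1, the protease that trims the ends of fibrillar procollagens, fell by 1.56 (SE 0.09, adjusted p = 1.83e-05). Its control arrays read 0.88, 0.51 and 0.67 and its mutant arrays -0.88 and -0.85. Of 13 basement membrane partners, 5 fell, led by Frem2 (-1.53), of an extracellular complex under epithelia, and Pxdn (-0.91), the peroxidase that crosslinks type IV collagen. Of 13 receptors, 4 fell, led by Itga3, a laminin-binding integrin chain (-1.42, adjusted p = 0.00167), and the collagen receptor Ddr1 (adjusted p = 0.00189), which read -0.73, -0.43 and -0.29 in the control arrays and -1.63 and -1.34 in the mutant ones. Of 9 proteases and inhibitors, Timp2 (-1.37), Mmp14 (-1.25) and Mmp9 (-0.33) fell and Timp1 rose (1.24). Mmp9 did not pass when control replicate 1 (0.058) or 2 (0.0697), or mutant replicate 2 (0.126) or 3 (0.208), was left out. The medians of the lists were -0.15, -0.14, -0.44, -0.14 and -0.28, against -0.01 for all genes.

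In N2B27, 4 of the 63 were higher and 1 was lower in mutant cells, where 4.10% of all genes were called higher and 1.64% lower. Creb3l1 rose by 0.46 (SE 0.08, adjusted p = 0.0079) and Timp1 by 0.89 (adjusted p = 0.00831). In the interaction, which tests the change between media, 9 of the 63 were called, all higher, against 2.12% of all genes. Bmp1 had 1.62 (SE 0.12, adjusted p = 0.000434), Timp2 1.46 (adjusted p = 0.00639) and Creb3l1 1.10 (SE 0.11, adjusted p = 0.00234), and these 3 were called under every alternative tried. Within mutant cells, 20 of the 63 were called higher in N2B27 and 10 lower, where 14.9% of all genes were called higher and 10.3% lower. Among them, Frem2 rose by 2.01, Mmp2, a type IV collagenase, by 1.91, Pxdn by 1.85 and Ddr1 by 1.57. Pcolce2, an enhancer of procollagen processing, fell by 2.10, Timp1 by 1.89 and Nid1 by 1.73. In control cells, 9 of the 63 were called higher in N2B27 and 17 lower, where 12.8% of all genes were called higher and 13.3% lower. Among these, Mmp2 rose by 1.23, Fras1 by 1.03 and Pxdn by 0.97. Pcolce2 fell by 1.66, Timp1 by 1.54, Crtap, of the collagen prolyl 3-hydroxylase complex, by 1.52 and Nid1 by 1.49. Nid1 in mutant cells was not called without mutant ESC replicate 2 (0.0558).

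**Figure D5:**
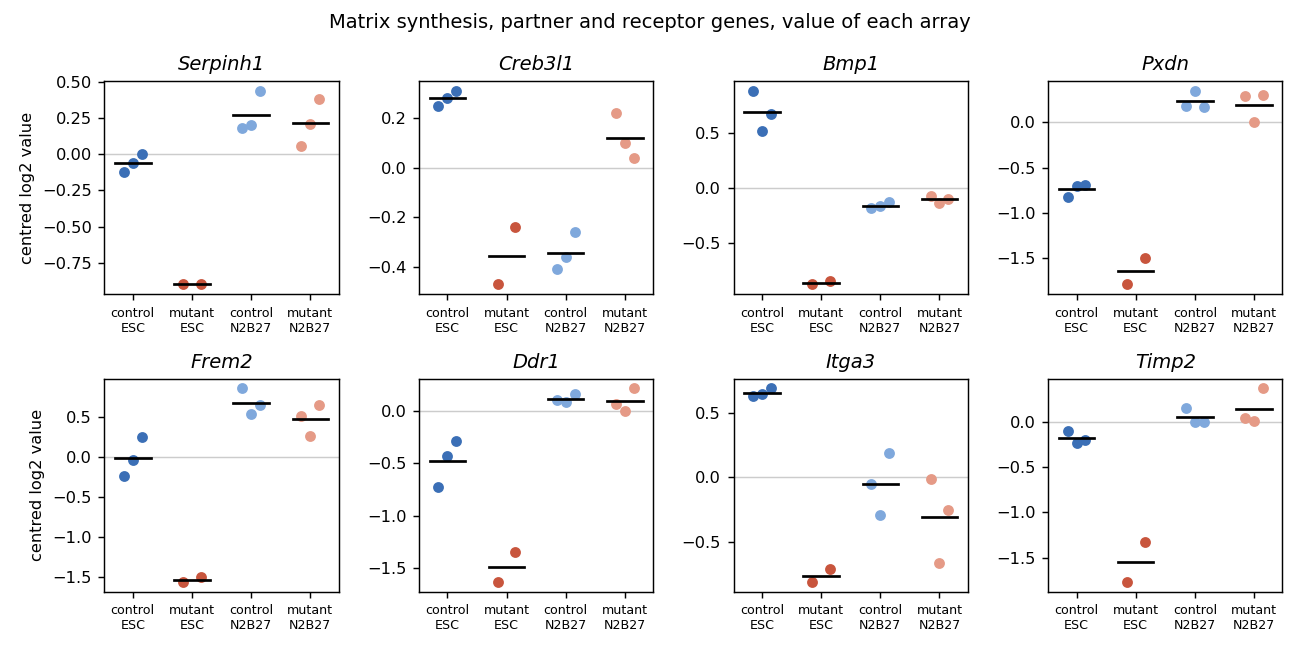
Centred log2 value of each array (points) and group mean (lines) for 8 genes of matrix synthesis, partners and receptors in the 4 groups. The mutant arrays in ESC medium are the lowest of all 11 for each gene but Creb3l1, for which control arrays in N2B27 are as low.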

How the data were processed

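Total RNA of 11 mouse ESC samples was hybridised to 1-colour Affymetrix arrays. The authors deposited log2 values, which per the submitters' processing notes come from RMA as run by Expression Console 1.2 of Affymetrix. The base of the log is that of usual RMA output. Values run from -5.22 to 6.42 and 55.8% of clusters hold an exact 0, so each cluster was centred on a baseline. The sources used here do not define that baseline or give the genome build. Of 28815 clusters, the 21780 with 1 gene symbol were kept and averaged by gene, giving 19935 genes. Symbols were checked through RefSeq (GRCm38.p6), which changed 0 of them. All 4 groups entered 1 limma 3.58.1 fit (R 4.3.3, lmFit and eBayes), with Benjamini-Hochberg adjustment over all genes. The code was tested on simulated data.

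All fibrillar and basement membrane genes, other collagens called at least once, and up to 4 called genes of each related list with the largest differences per comparison could be named. The text marks exceptions. The members and lists were chosen with earlier results of these data known. Deviations of same-numbered arrays from their group means correlated at 0.131 to 0.181 for N2B27 in control cells and 0.158 to 0.43 for genotype in N2B27, every pair above 0.1, so the numbers were taken to pair these arrays. Arrays of unlike number were not compared in this way, and the labels name no pairing, so it is an assumption. Alternatives were other scalings, priors, array weights, left-out arrays, the replicate block, chromosomes 8, X and Y left out or centred, and stricter thresholds.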

Additional observations from a re-analysis of the deposited data

Results flagged for a closer look

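The response to N2B27 differed between genotypes by the interaction test for 1 collagen gene and for 9 of the 63 related genes, all with positive values, where 1.57% of all genes were called higher and 0.552% lower. Col1a1 had 1.55 (limma, adjusted p = 0.0194), with a fall in control cells and no call in mutant cells. Among biosynthesis and processing genes, Bmp1 had 1.62, Creb3l1 1.10 and Serpinh1 0.78. Among basement membrane partners, Frem2 had 1.32 and Pxdn 0.87, and among receptors Itga3 had 1.16 and Ddr1 0.98. Of the proteases and inhibitors, Timp2 had 1.46 and Mmp14 1.19. All 10 rest in part on the same 2 mutant arrays in ESC medium. Bmp1, Creb3l1 and Timp2 were called with each array left out in turn. Without mutant ESC replicate 2 the call was lost for Col1a1 (adjusted p = 0.1), Serpinh1 (0.119), Frem2 (0.0827), Pxdn (0.119), Itga3 (0.165), Ddr1 (0.119) and Mmp14 (0.119). Without mutant ESC replicate 3 it was lost for Col1a1 (0.0795), Serpinh1 (0.0879), Frem2 (0.0552) and Itga3 (0.112). Leaving out control ESC replicate 2 lost Serpinh1 (0.0646), Pxdn (0.0659), Itga3 (0.093) and Ddr1 (0.0643). Leaving out control ESC replicate 3 lost Serpinh1 (0.0665), Pxdn (0.0649), Itga3 (0.0917) and Mmp14 (0.0609), and leaving out control ESC replicate 1 lost Itga3 (0.0507). Without control N2B27 replicate 2 the call was lost for Col1a1 (0.0529), Serpinh1 (0.061), Itga3 (0.0767), Ddr1 (0.056) and Mmp14 (0.0566), and without control N2B27 replicate 3 for Col1a1 (0.0531), Pxdn (0.0644) and Ddr1 (0.053). Itga3 was also lost without control N2B27 replicate 1 (0.0704) or mutant N2B27 replicate 3 (0.0733), and with array (0.0535) or chromosome (0.0628) medians subtracted.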

How the results depend on the processing

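Of 28 called differences of collagen and laminin genes, 9 were called under every alternative other than the stricter thresholds, and 0 reversed. Of 242 not called, 28 were called under some alternative. For N2B27 in control cells, the count of 7 became 14 with array weights. In mutant cells, the count of 10 ranged from 5 to 12 with 1 array left out and was 17 with array weights. For genotype in ESC medium, the count of 9 ranged from 2 to 9 with 1 array left out. For genotype in N2B27, the count of 1 was 3 with array medians subtracted, 0 to 2 with 1 array left out, 4 with the replicate block, 8 with array weights, 0 without chromosomes 8, X and Y and 2 with chromosome medians subtracted. For the interaction it was 0 to 1 with 1 array left out, and 2 with the replicate block or array weights, Lamb1 being the gene gained (0.67, adjusted p = 0.0283, and 0.77, adjusted p = 0.0341). At an adjusted p under 0.01 the counts were 5 and 4 for N2B27 in control and mutant cells. They were 3 for genotype in ESC medium, 0 for genotype in N2B27 and 0 for the interaction. With the threshold kept at 0.05 and a difference of at least 1 required, they were 1 and 1 for the medium in control and mutant cells. For genotype in ESC medium and N2B27 they were then 2 and 0, and for the interaction 1. The cause was not tested. Only 2 pairs of numbers exist for the medium in mutant cells (correlations 0.215 and 0.266) and for genotype in ESC medium (0.0365 and 0.284). With the replicate block the former gave 13 calls, gaining Lama1 (-0.78, adjusted p = 0.00594), Col4a6 (0.35, 0.0254) and Col6a5 (-0.32, 0.0465). In the latter Col4a1 was not called (adjusted p = 0.0507) and Lama4 was (0.0469). A filter on low values and a trended prior were not run, since centred values hold no level. Signal over background is not in these values, and 2 mutant arrays in ESC medium limit 3 of the 5 comparisons.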
